A study of Homo sapiens with 30 samples.

Results

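The human metallothioneins and the zinc exporter SLC30A1 were followed in HepG2, an established line derived from a liver tumour, after sorafenib. The members were the 10 rows of the count table whose Ensembl identifier maps by GENCODE to MT1A, MT1B, MT1E, MT1F, MT1G, MT1H, MT1M, MT1X, MT2A or SLC30A1, out of 60107 genes in the table, of which 25347 had a count. All 10 had counts and passed the filter on low counts in the main fits, though not in every alternative fit. The rule uses names and no measured value.

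The 30 libraries formed 10 groups of 3. At 6 h, cells carried an inhibitor control (IC) or an inhibitor of miR-200c-3p (I-miR-200c-3p). At 24 h, the transfected molecule was the mimic control (MC), the miR-222-5p mimic (M-miR-222-5p) or the miR-512-3p mimic (M-miR-512-3p). Each transfection received the solvent dimethyl sulfoxide (DMSO) or sorafenib at 10 µM, added 24 h after transfection. Sorafenib blocks several kinases and is a drug for liver cancer at an advanced stage. All groups share 1 cell line and a transfection, and the control oligonucleotide differs between the times, so time and kind of control cannot be told apart. The study describes its sequencing experiments as independent replicates, while the labels do not say which samples came from separate cultures. The p-values measure the spread between these samples.

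Metallothioneins are small cysteine-rich proteins that bind zinc and copper in the cytosol. When free zinc rises, the zinc finger protein MTF1 binds metal response elements in their promoters and in that of SLC30A1, which moves zinc out of the cell across the plasma membrane. The liver is a main site of metallothionein synthesis. MT2A and the MT1 genes lie together on chromosome 16, here from 56608584 to 56684196 of GRCh38, all on the plus strand except MT1G. SLC30A1 (ENSG00000170385) lies on chromosome 1 from 211571568 to 211579161, on the minus strand.

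The RefSeq promoter table on GRCh38.p14 held 5 of the 10 members, MT2A, MT1B, MT1H, MT1X and SLC30A1. MT1A, MT1E, MT1F, MT1G and MT1M had no entry. The 250 bases before each gene start are shown because MTF1 acts through metal response elements in promoters. Capitals mark every match to the core TGCACNC or TGCGCNC on either strand, where N is any base.
MT2A, chr16:56608334-56608583, plus strand: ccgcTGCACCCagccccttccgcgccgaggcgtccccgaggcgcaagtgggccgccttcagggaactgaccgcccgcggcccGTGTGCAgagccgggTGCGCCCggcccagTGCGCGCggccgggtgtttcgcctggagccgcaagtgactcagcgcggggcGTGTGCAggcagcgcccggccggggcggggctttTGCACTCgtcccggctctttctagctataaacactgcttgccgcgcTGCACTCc
MT1B, chr16:56651636-56651885, plus strand: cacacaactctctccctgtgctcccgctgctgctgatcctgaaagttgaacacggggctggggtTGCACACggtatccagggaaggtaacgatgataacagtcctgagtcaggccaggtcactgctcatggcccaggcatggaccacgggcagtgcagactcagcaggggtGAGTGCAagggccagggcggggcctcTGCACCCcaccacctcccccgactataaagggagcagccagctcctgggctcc
MT1H, chr16:56669564-56669813, plus strand: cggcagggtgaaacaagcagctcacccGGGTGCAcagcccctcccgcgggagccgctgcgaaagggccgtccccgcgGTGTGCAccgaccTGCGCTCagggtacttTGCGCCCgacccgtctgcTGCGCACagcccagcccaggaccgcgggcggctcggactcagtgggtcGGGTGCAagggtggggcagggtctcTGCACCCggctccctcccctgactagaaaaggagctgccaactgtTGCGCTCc
MT1X, chr16:56682220-56682469, plus strand: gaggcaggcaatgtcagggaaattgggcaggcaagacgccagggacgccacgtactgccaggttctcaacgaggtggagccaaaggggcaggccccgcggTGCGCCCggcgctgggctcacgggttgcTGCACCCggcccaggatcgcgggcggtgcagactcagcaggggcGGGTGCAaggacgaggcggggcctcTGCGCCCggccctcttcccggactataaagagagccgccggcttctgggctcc
SLC30A1, chr1:211579162-211579411, minus strand: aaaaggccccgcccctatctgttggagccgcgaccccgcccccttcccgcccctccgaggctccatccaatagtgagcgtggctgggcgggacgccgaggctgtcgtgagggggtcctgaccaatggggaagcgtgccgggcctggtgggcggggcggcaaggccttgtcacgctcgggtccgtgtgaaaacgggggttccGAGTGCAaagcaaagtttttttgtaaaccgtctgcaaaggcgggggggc

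Over the whole window of 300 bases, which runs 50 bases past the start, MT2A and MT1H each held 8 matches, MT1X held 4, MT1B held 3 and SLC30A1 held 2. No match overlapped another in these 5 windows. Of all 35116 promoters in the table, 29.6% held at least 1 match, 8.60% at least 2 and 0.601% at least 4. Counting upstream bases as negative from the gene start, each of the 4 metallothioneins had a match on the opposite strand with its first base between -88 and -78, and one on the strand of the gene between -54 and -53. The upstream match of SLC30A1 had its first base at -49. A match is a description of letters and does not show binding.

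**Figure D1:**
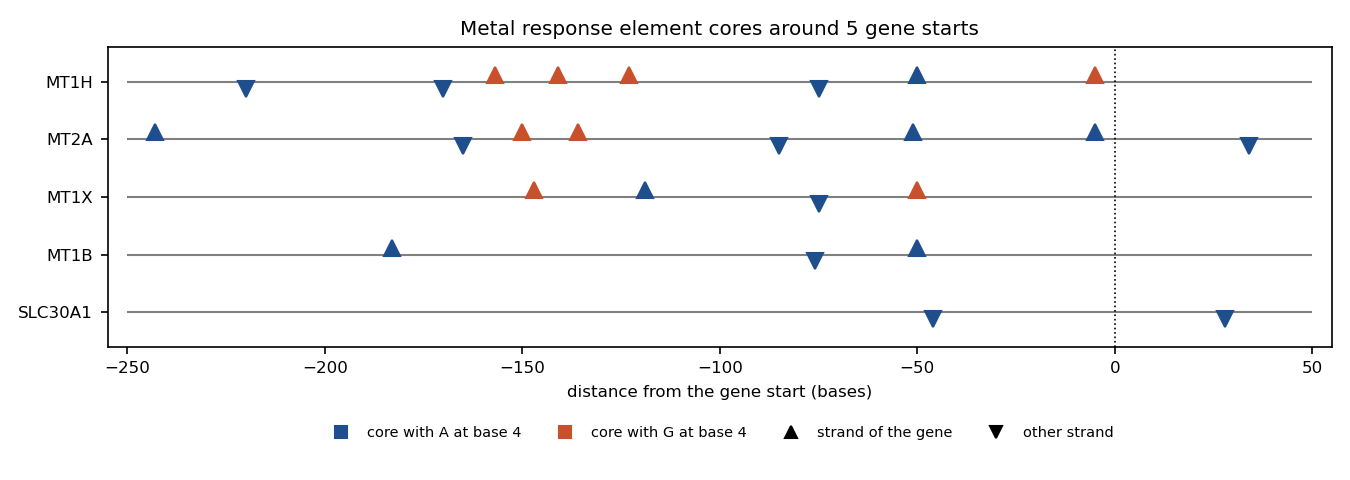
Positions of metal response element cores around the starts of 5 genes. The horizontal axis is the distance from the gene start in bases, each row is a gene, and triangles show matches, pointing up on the strand of the gene and down on the other; MT1H and MT2A hold 8 each and SLC30A1 holds 2.

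The library totals ran from 3938764 to 9657063 counts with a median of 6460787, and mitochondrial genes held 17.5% to 26.8% of them. Levels are given as CPM, counts scaled as if every library had the same total. Taking 3 counts as the limit for a count of 0, an undetected gene could stand at 0.311 CPM in the deepest and 0.762 CPM in the shallowest library. Such limits and the counting intervals below cover counting error only. All 10 liver markers (ALB, AFP and APOB among them) had counts in every library, with summed levels of 11279 to 18152 CPM in DMSO and 7166 to 14362 CPM in sorafenib. Of 8 markers of blood, fibroblast, endothelial and squamous cells, VWF and KRT5 were at 0 in all 30 libraries, PTPRC was at 0 in 29 and COL3A1 in 28. PECAM1 was at 0 in 13 libraries and reached 3.08 CPM, and COL1A1 was at 0 in 4 and reached 11.9 CPM. CD68 had counts in every library, at 0.472 to 10.9 CPM. The sum of these 8 was 114 to 325 CPM in DMSO and 96.4 to 199 CPM in sorafenib, most of it LYZ at 93.5 to 309 CPM. The part of these marker shifts in the results below was not tested.

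Sorafenib went with more metallothionein RNA in each of the 5 transfections. The 9 metallothioneins together made up 0.177% to 0.595% of all counts in the 15 DMSO libraries and 0.872% to 2.91% in the 15 sorafenib libraries, so that every sorafenib library lay above every DMSO library. In IC the share went from 0.428% ± 0.168 (SD, n = 3) in DMSO to 1.03% ± 0.192 in sorafenib, and in I-miR-200c-3p from 0.186% ± 0.00837 to 1.06% ± 0.0605. At 24 h it went from 0.303% ± 0.140 to 1.41% ± 0.336 in MC, from 0.346% ± 0.199 to 1.69% ± 0.314 in M-miR-222-5p and from 0.325% ± 0.0259 to 2.36% ± 0.493 in M-miR-512-3p. The ratios of the group means were 2.40 in IC, 5.67 in I-miR-200c-3p, 4.64 in MC, 4.89 in M-miR-222-5p and 7.26 in M-miR-512-3p. These sums are a description and carry no test. In bulk samples, a change in the cells that hold an RNA and a change in the RNA per cell cannot be told apart.

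Ordered by the mean of the metallothionein total, the groups ran from I-miR-200c-3p_DMSO through MC_DMSO, M-miR-512-3p_DMSO, M-miR-222-5p_DMSO and IC_DMSO to IC_sorafenib, I-miR-200c-3p_sorafenib, MC_sorafenib, M-miR-222-5p_sorafenib and M-miR-512-3p_sorafenib. The libraries of neighbouring groups overlapped in this order except at 2 places. I-miR-200c-3p_DMSO, at 1768 to 1928 CPM, lay below MC_DMSO, at 2105 to 4642 CPM. IC_DMSO, with at most 5952 CPM, lay below IC_sorafenib, with at least 8720 CPM.

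**Figure D2:**
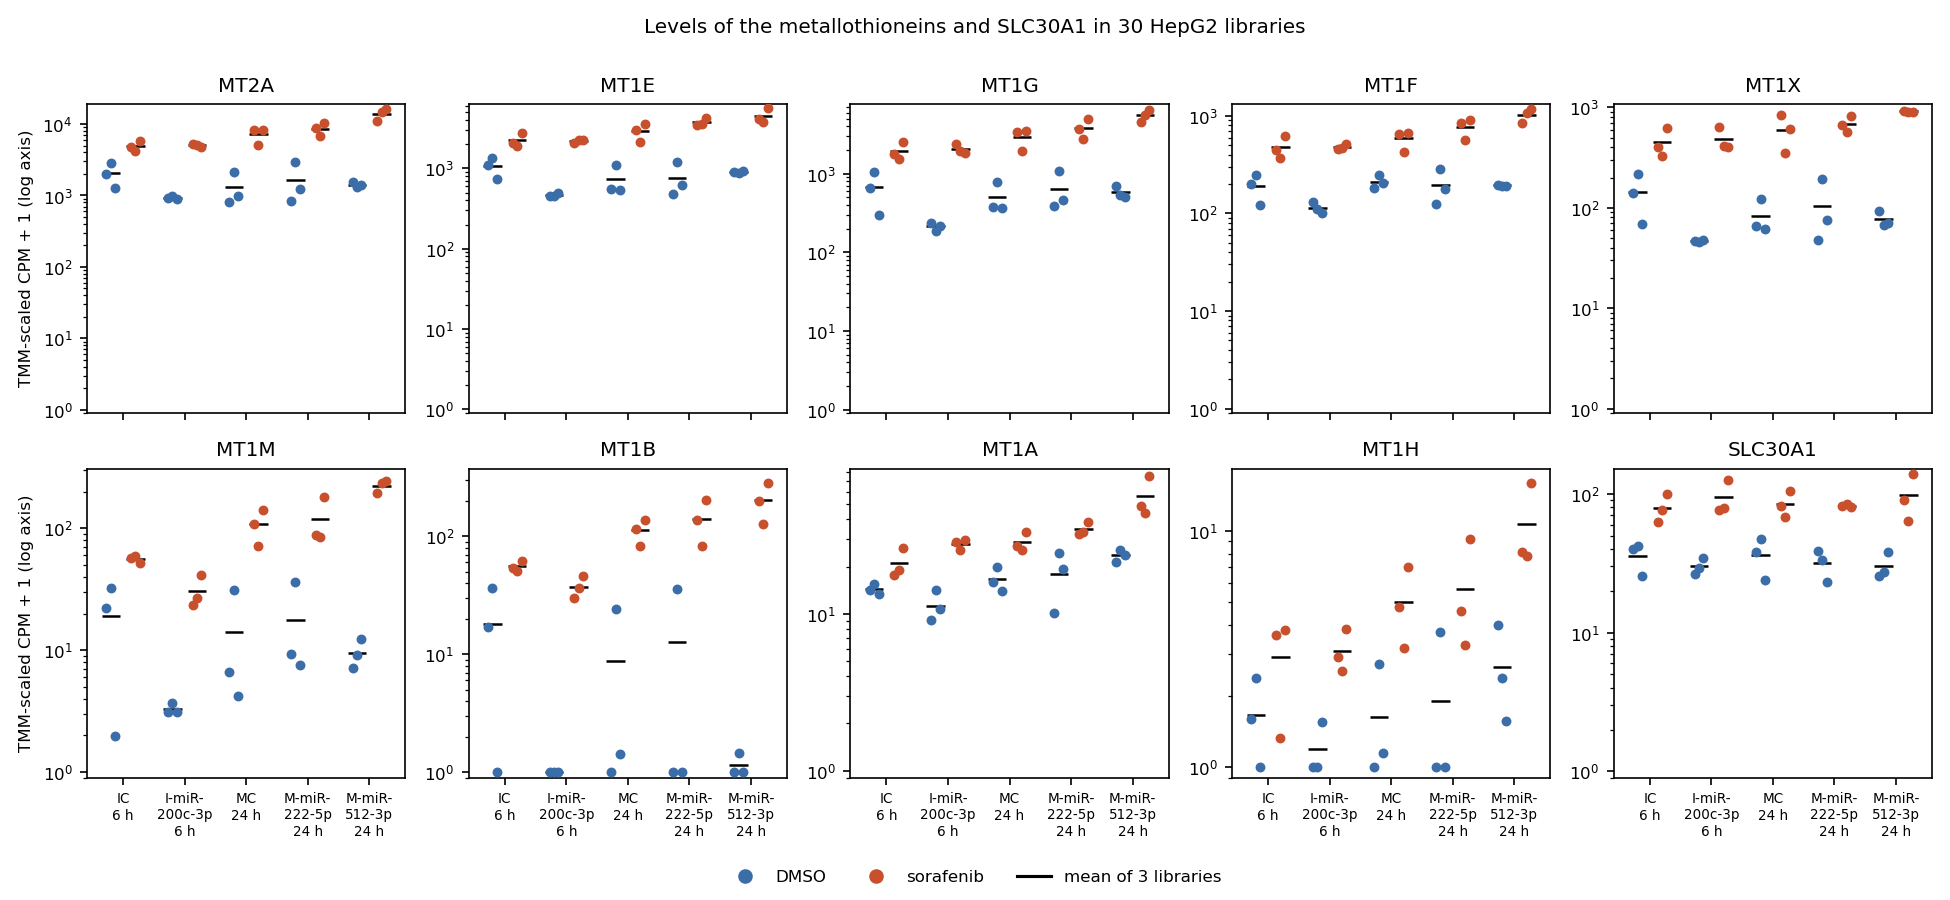
Level of each of the 10 genes in every library. The vertical axis is TMM-scaled CPM plus 1 on a log axis, the horizontal axis gives the 5 transfections, blue points are DMSO, red points are sorafenib and black bars are means of 3 libraries; MT2A, MT1E, MT1G, MT1F, MT1X and SLC30A1 show no overlap between the 15 DMSO and 15 sorafenib points.

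Of the 10 members, 4 rose with sorafenib in IC, 9 in I-miR-200c-3p, 7 in MC, 7 in M-miR-222-5p and 9 in M-miR-512-3p, at an edgeR Benjamini-Hochberg adjusted p under 0.05 over all genes tested, and none fell. Genes called higher made up 0.0314% of all genes tested in IC, where the 4 members were the 4 genes called higher, 0.911% in I-miR-200c-3p, 1.8% in MC, 2.82% in M-miR-222-5p and 5.34% in M-miR-512-3p. The sorafenib libraries of a transfection all lay above its DMSO libraries for 9 members in IC, 10 in I-miR-200c-3p, 10 in MC, 9 in M-miR-222-5p and 10 in M-miR-512-3p. The same held for 6.31%, 8.71%, 12.8%, 13.9% and 13.6% of all genes tested in these transfections. MT1B, counted as called in I-miR-200c-3p and M-miR-512-3p, passed the filter on low counts only through sorafenib libraries. Its place in these counts therefore adds no support. Across all transfections together, the 15 sorafenib libraries lay above all 15 DMSO libraries for 6 members, MT2A, MT1E, MT1G, MT1F, MT1X and SLC30A1, against 0.263% of the 12538 genes tested at both times (33 genes). The median log2 fold change of the 9 metallothioneins was 1.51 in IC, 3.25 in I-miR-200c-3p, 2.54 in MC, 2.52 in M-miR-222-5p and 3.26 in M-miR-512-3p, beside a median of all genes between -0.03 and 0.00.

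The calls in IC rested on single libraries. No member was called there without the first IC_DMSO library, without the first or without the third IC_sorafenib library, and 1 (MT2A) without the third IC_DMSO library. DESeq2 called 6 members in IC, 9 in I-miR-200c-3p, 7 in MC, 8 in M-miR-222-5p and 9 in M-miR-512-3p.

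MT2A, the main metallothionein of human tissues, held the largest part of the family counts in every library. Its level in IC was 1985, 2844 and 1257 TMM-scaled CPM in the 3 DMSO libraries and 4727, 4237 and 5848 in the 3 sorafenib libraries. In I-miR-200c-3p the DMSO libraries held 923, 988 and 891 CPM and the sorafenib libraries 5326, 5147 and 4837. DMSO and sorafenib did not overlap within either transfection of 6 h, and the DMSO libraries of I-miR-200c-3p were all below those of IC.

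At 24 h, MT2A stood at 805, 2161 and 997 CPM in MC_DMSO against 8251, 5023 and 8199 in MC_sorafenib. M-miR-222-5p gave 836, 2943 and 1232 CPM in DMSO and 8673, 6735 and 10392 in sorafenib. M-miR-512-3p gave 1552, 1310 and 1401 CPM in DMSO and 10858, 14725 and 16381 in sorafenib. The second DMSO library of MC and of M-miR-222-5p was the highest of its group, and the sorafenib libraries of M-miR-512-3p exceeded all other libraries. MT2A rose by a log2 fold change of 1.28 ± 0.20 (SE) in IC (adjusted p = 0.019), 2.44 ± 0.21 in I-miR-200c-3p (8.6e-07), 2.44 ± 0.37 in MC (0.00053), 2.36 ± 0.36 in M-miR-222-5p (0.00053) and 3.30 ± 0.38 in M-miR-512-3p (4.8e-06).

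MT1E and MT1G were the next most abundant members. The 3′ tag libraries give about 1 read per transcript molecule, so levels of different genes are compared here without a correction for length. MT1E went from 1059 ± 299 CPM in DMSO to 2227 ± 454 in sorafenib in IC and from 468 ± 26.5 to 2190 ± 111 in I-miR-200c-3p. It stood at 733 ± 328 and 2891 ± 701 CPM in MC, at 765 ± 384 and 3730 ± 411 in M-miR-222-5p and at 899 ± 26.3 and 4492 ± 944 in M-miR-512-3p. MT1E rose in all 5 transfections, with log2 fold changes of 1.07 ± 0.18 in IC and 1.99 to 2.32 in the other 4.

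MT1G had 669 ± 374 CPM in DMSO and 1955 ± 508 in sorafenib in IC, and its log2 fold change of 1.54 ± 0.28 there missed the threshold (adjusted p = 0.054). In I-miR-200c-3p it went from 212 ± 23.8 to 2037 ± 293 CPM, in MC from 511 ± 236 to 2960 ± 895, in M-miR-222-5p from 643 ± 378 to 3790 ± 1086 and in M-miR-512-3p from 576 ± 102 to 5529 ± 960. MT1G rose in these 4 transfections, by 2.54 to 3.26 on the log2 scale. The order of MT1E and MT1G in the mean level differed with treatment, with MT1E ahead in all 5 DMSO groups and MT1G ahead in MC_sorafenib, M-miR-222-5p_sorafenib and M-miR-512-3p_sorafenib, where the libraries of both genes overlapped.

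MT1F and MT1X, 2 further zinc-binding members, were less abundant. MT1F ranged from 100 to 285 CPM over the 15 DMSO libraries and from 366 to 1169 over the 15 sorafenib libraries. It rose in all 5 transfections, by 1.33 ± 0.21 in IC, 2.07 ± 0.22 in I-miR-200c-3p, 1.49 ± 0.25 in MC, 1.97 ± 0.25 in M-miR-222-5p and 2.42 ± 0.26 in M-miR-512-3p on the log2 scale. MT1X ranged from 44.3 to 217 CPM in DMSO and from 327 to 927 in sorafenib. MT1X rose in all 5 as well, by 1.67 ± 0.29 in IC (adjusted p = 0.039) and by 2.72 to 3.58 in the others. Among the 5 abundant metallothioneins, its log2 fold change was the highest in each transfection.

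**Figure D3:**
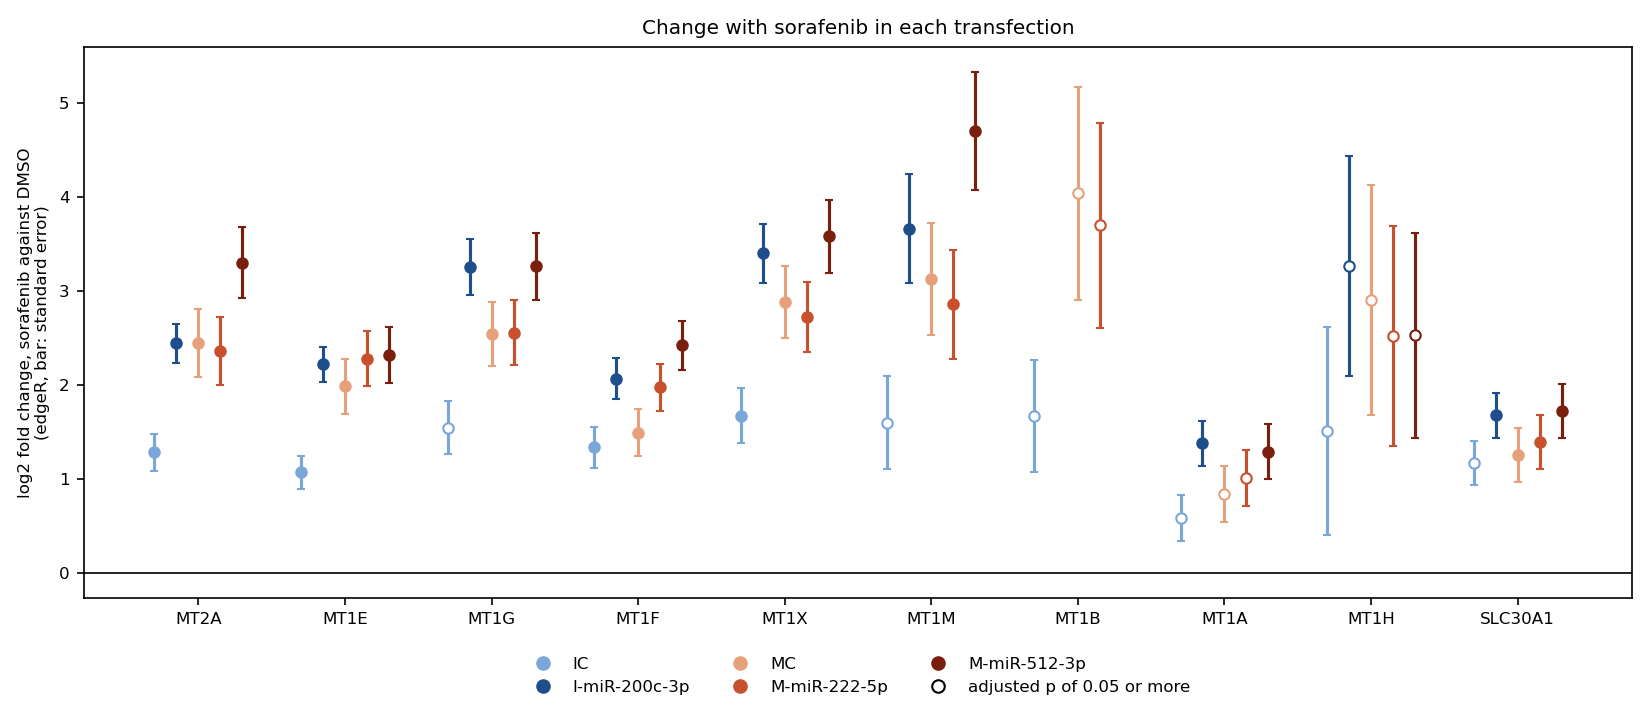
Log2 fold change of sorafenib against DMSO for each gene in the 5 transfections. Points are edgeR estimates and bars standard errors, filled points passed an adjusted p of 0.05, and MT1B in I-miR-200c-3p and M-miR-512-3p is left out because its DMSO libraries held 0 to 3 counts; all values shown lie above 0 and those of MT1A are the lowest metallothionein values in each transfection.

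MT1M ranged from 0.974 to 35.2 CPM over the DMSO libraries and from 22.4 to 242 over the sorafenib libraries. It rose in I-miR-200c-3p (2.31 ± 0.359 to 29.6 ± 9.61 CPM, log2 fold change 3.66 ± 0.58, adjusted p = 0.0013), in MC (3.12 ± 0.59, 0.0037), in M-miR-222-5p (2.86 ± 0.58, 0.0054) and in M-miR-512-3p (4.70 ± 0.63, 3.1e-05), where the DMSO libraries had at most 11.5 CPM and the sorafenib libraries at least 193. In IC the 3 DMSO libraries held 21.2, 31.7 and 0.974 CPM and the sorafenib libraries 56.0, 58.3 and 50.5 CPM. Its log2 fold change of 1.60 ± 0.49 there had an adjusted p of 0.55.

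MT1B was absent or nearly absent from most DMSO libraries and present in every sorafenib library. In IC it had 81, 154 and 0 counts in DMSO and 305, 306 and 436 in sorafenib. In I-miR-200c-3p there were 0, 0 and 0 counts in DMSO against 260, 343 and 379 in sorafenib. The third IC_DMSO library had no MT1B count, as in the 3 libraries of the inhibitor, while the first and second IC_DMSO libraries did.

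At 24 h, MC gave 0, 94 and 3 MT1B counts in DMSO and 821, 409 and 936 in sorafenib. M-miR-222-5p gave 0, 155 and 0 in DMSO and 1081, 357 and 1180 in sorafenib, and M-miR-512-3p gave 0, 3 and 0 in DMSO and 1033, 650 and 2258 in sorafenib. The second DMSO libraries of MC and M-miR-222-5p stood apart from the other DMSO libraries at this time. Taking 3 counts in each DMSO library, MT1B was at least 92.4-fold higher with sorafenib in I-miR-200c-3p. In M-miR-512-3p the ratio of the pooled levels was 1367, with an exact 95% counting interval of 467 to 6632 that rests on 3 counts in DMSO. MT1B was called in these 2 transfections and not in IC (log2 fold change 1.66 ± 0.60, adjusted p = 0.93), MC (4.04 ± 1.13, 0.054) or M-miR-222-5p (3.70 ± 1.09, 0.052). Because MT1B passed the filter on low counts only through sorafenib libraries, its calls add no support beyond the counts given. In a setting added after seeing the data, without the second DMSO libraries of MC and of M-miR-222-5p, 9 members were called in MC, 10 in M-miR-222-5p and 10 in M-miR-512-3p.

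The DMSO libraries differed in the metallothionein total, and MT1B followed that order. From 0.177% to 0.354% of the library, covering 11 of the 15 DMSO libraries, MT1B had 0 to 3 counts. It had 81 counts at 0.428% (IC, first library), 94 at 0.464% (MC, second), 155 at 0.574% (M-miR-222-5p, second) and 154 at 0.595% (IC, second). These last 4 held 3941570 to 4933999 counts, while the 11 held 3938764 to 8756018, with 5691824 or more in all but the IC library. The part of depth in these levels was not tested.

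MT1A had the smallest differences. It ranged from 8.06 to 24.7 CPM in DMSO and from 16.7 to 74.8 in sorafenib, and its log2 fold change was the lowest of the metallothioneins in each transfection. It rose in I-miR-200c-3p (1.38 ± 0.24, adjusted p = 0.0032) and M-miR-512-3p (1.29 ± 0.29, 0.0057). In IC (0.58 ± 0.25), MC (0.84 ± 0.30) and M-miR-222-5p (1.01 ± 0.30) it was not called.

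MT1H was the scarcest member, at 0 to 2.99 CPM in DMSO and 0.325 to 14.9 CPM in sorafenib. Its median of 0.556 CPM in DMSO was within the range that a count of 0 allows, and that of 2.85 CPM in sorafenib was above it. It was called in none of the 5 transfections by edgeR or DESeq2, with an unadjusted p under 0.05 in 4 of them (all but IC), edgeR adjusted p of 0.15 or more and SE of 1.09 to 1.22 on the log2 scale. Its promoter window holds as many core matches as that of MT2A. MT1H passed in M-miR-512-3p with no filter on low counts (adjusted p = 0.043) and with only the groups compared (0.029), and in M-miR-222-5p without the second DMSO library (0.010).

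The same 5 genes dominated the family in all groups. MT2A, MT1E, MT1G, MT1F and MT1X together held 97.9% to 99.5% of the metallothionein counts in every library. MT2A held 40.1% to 54.8% in DMSO and 46.8% to 55.6% in sorafenib. Its share in sorafenib was above that in DMSO with no overlap in MC (44.7% and 49.6%) and M-miR-512-3p (44.4% and 52.7%), below it with no overlap in I-miR-200c-3p (52.3% and 49.1%), and overlapped in IC and M-miR-222-5p. Shares are given without a test, and a share rises when others fall.

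MT1E had a lower share with sorafenib, from a median of 25.3% over the DMSO libraries to 20.9% over the sorafenib libraries, with no overlap within IC, I-miR-200c-3p, MC and M-miR-512-3p. MT1G went the other way, from 17.4% to 20.8%, with no overlap within the same 4 transfections. MT1X went from 2.69% to 3.94%, with no overlap within any transfection. MT1F went from 6.05% to 4.19%, while in IC its mean share was 4.62% in DMSO and 4.63% in sorafenib.

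Among the scarce members, MT1A went from a median share of 0.550% to 0.212%, with no overlap within any of the 5 transfections. MT1B went from 0% to 0.585% and MT1M from 0.268% to 0.654%. DMSO and sorafenib shares overlapped in IC and M-miR-222-5p for MT1B, and in IC, MC and M-miR-222-5p for MT1M. In M-miR-512-3p, the mean share of MT1A was 0.712% in DMSO and 0.207% in sorafenib, and that of MT1M was 0.271% and 0.848%. MT1H stayed at 0.0860% or less in every library.

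**Figure D4:**
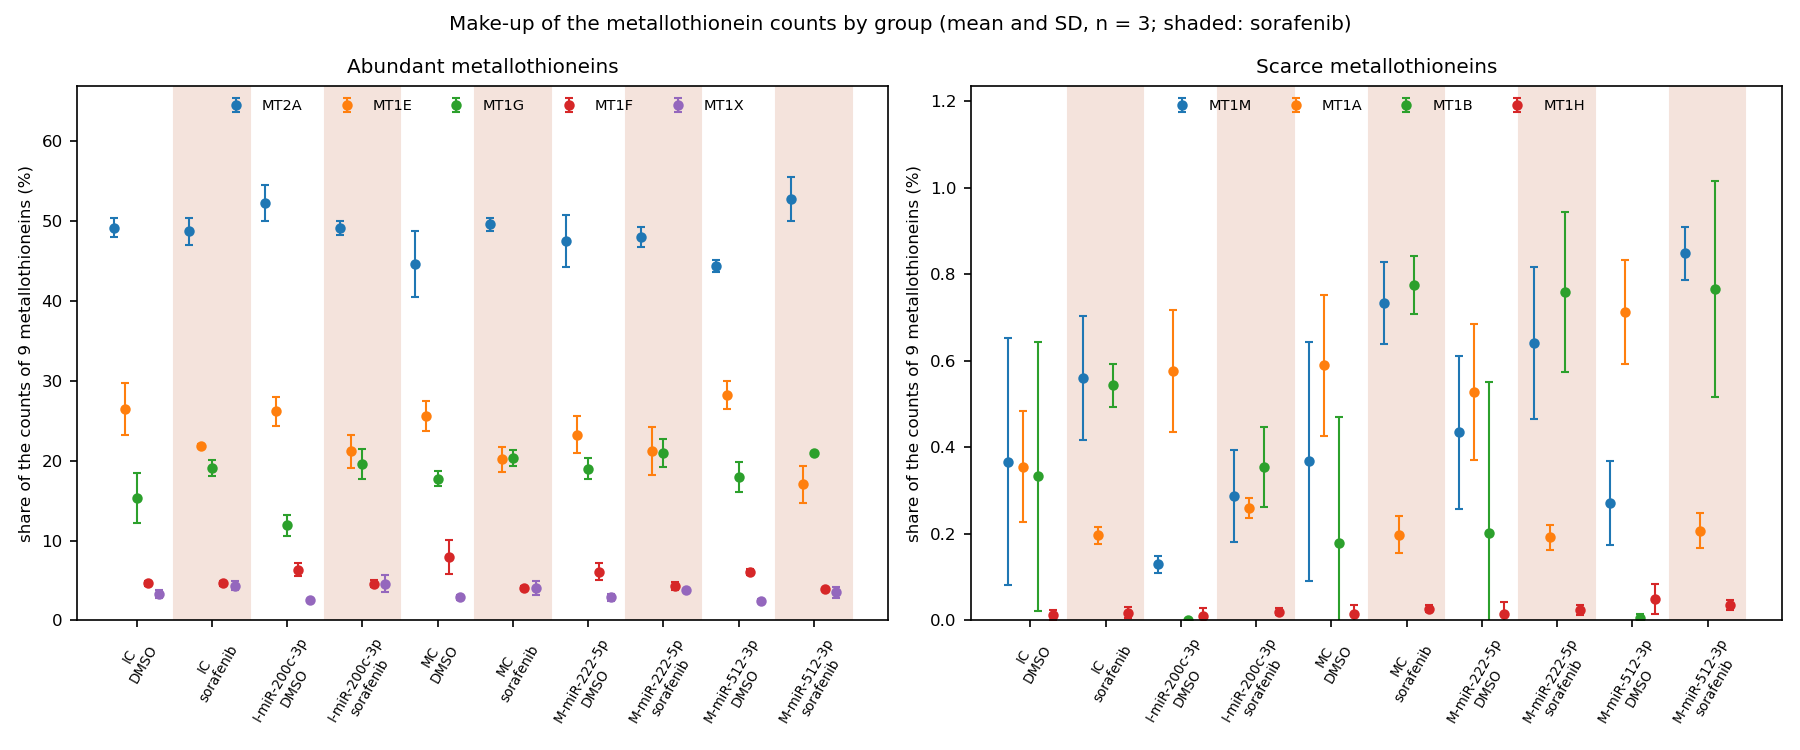
Share of each metallothionein in the counts of all 9, by group. The vertical axes are percent, points are means and bars SD of 3 libraries (cut at 0), and shaded columns are sorafenib; the means of MT2A lie between 44.4% and 52.7%, those of MT1E are lower and those of MT1G higher with sorafenib in all 5 transfections, and MT1A lies below MT1B and MT1M in the sorafenib groups.

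These genes are close copies, so reads can be hard to assign. Among windows of 65 bases, the number of sequencing cycles, in the last 300 bases of the GENCODE transcripts, 14.8% of those of MT1H also occurred in another of the 21 metallothionein loci, mainly in MT1HL1. The figure was 8.97% for MT1G, 6.75% for MT1X, 4.52% for MT1M, 3.38% for MT2A, 2.71% for MT1E and 0.424% for MT1A. MT1B, MT1F and SLC30A1 shared none. The 10 other metallothionein loci in the table held 81 counts against 1863483 in the 9 members over all libraries, with at most 13 in any library, and none passed the filter on low counts. Single members with shared windows are thus less certain than the total.

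SLC30A1, the plasma membrane zinc exporter, rose in 4 of the 5 transfections. In IC its level was 38.9, 41.4 and 24.4 TMM-scaled CPM in DMSO and 61.6, 75.0 and 99.3 in sorafenib. In I-miR-200c-3p it was 25.2, 28.1 and 33.6 CPM in DMSO and 75.8, 78.7 and 125 in sorafenib. The groups did not overlap in either transfection of 6 h.

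MC gave 37.0, 46.5 and 23.0 CPM of SLC30A1 in DMSO and 81.2, 66.7 and 104 in sorafenib. M-miR-222-5p gave 37.8, 32.3 and 22.03 CPM in DMSO and 80.5, 83.1 and 79.9 in sorafenib. M-miR-512-3p gave 24.8, 26.5 and 36.8 CPM in DMSO and 89.4, 62.6 and 138 in sorafenib. All 15 sorafenib libraries, from 61.6 CPM upwards, lay above all 15 DMSO libraries, of which the highest was at 46.5 CPM.

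The log2 fold change of SLC30A1 was 1.17 ± 0.24 in IC (adjusted p = 0.099), 1.67 ± 0.24 in I-miR-200c-3p (0.00049), 1.25 ± 0.28 in MC (0.015), 1.39 ± 0.29 in M-miR-222-5p (0.0056) and 1.72 ± 0.29 in M-miR-512-3p (0.00035). It was not called in IC by edgeR, while DESeq2 gave an adjusted p of 0.0023 there. The call in MC was lost without the first DMSO library (adjusted p = 0.058), without the third DMSO library (0.16) and without the third sorafenib library (0.13). The call in M-miR-222-5p was lost without the third M-miR-222-5p_DMSO library (0.051).

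SLC30A1 went in the direction of the metallothioneins in all 5 transfections, over a narrower span. The ratio of its mean level in sorafenib to that in DMSO was 2.26 in IC, 3.21 in I-miR-200c-3p, 2.37 in MC, 2.64 in M-miR-222-5p and 3.29 in M-miR-512-3p, beside 2.40 to 7.26 for the metallothionein total. The ratios of SLC30A1 use TMM-scaled CPM, while those of the total use CPM of total counts. Per 1000 metallothionein counts, SLC30A1 had 8.77 ± 1.40 counts in IC_DMSO and 7.74 ± 1.21 in IC_sorafenib, which overlap. The values were 16.2 ± 2.58 and 9.05 ± 3.06 in I-miR-200c-3p, 13.1 ± 4.61 and 5.92 ± 0.879 in MC, 11.4 ± 7.66 and 4.68 ± 1.05 in M-miR-222-5p, and 9.26 ± 2.38 and 3.64 ± 1.11 in M-miR-512-3p. Of these 4, the libraries overlapped in M-miR-222-5p. Whether its fold change differs from theirs was not tested.

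The 10 groups in order of mean SLC30A1 level in TMM-scaled CPM fell into DMSO and sorafenib, with no order within either beyond the spread. The DMSO means ran from 29.0 CPM in I-miR-200c-3p to 35.5 CPM in MC and the sorafenib means from 78.6 CPM in IC to 96.6 CPM in M-miR-512-3p, and the libraries of all neighbours within a treatment overlapped. The metallothionein total, in CPM of total counts, spread wider among the sorafenib groups, from 10258 CPM in IC to 23584 CPM in M-miR-512-3p. Among the 4 DMSO libraries with the highest metallothionein totals, SLC30A1 was at 38.9 CPM (IC, first), 46.5 CPM (MC, second) and 41.4 CPM (IC, second), the 3 highest values of the 15 DMSO libraries, and at 32.3 CPM (M-miR-222-5p, second), their median.

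**Figure D5:**
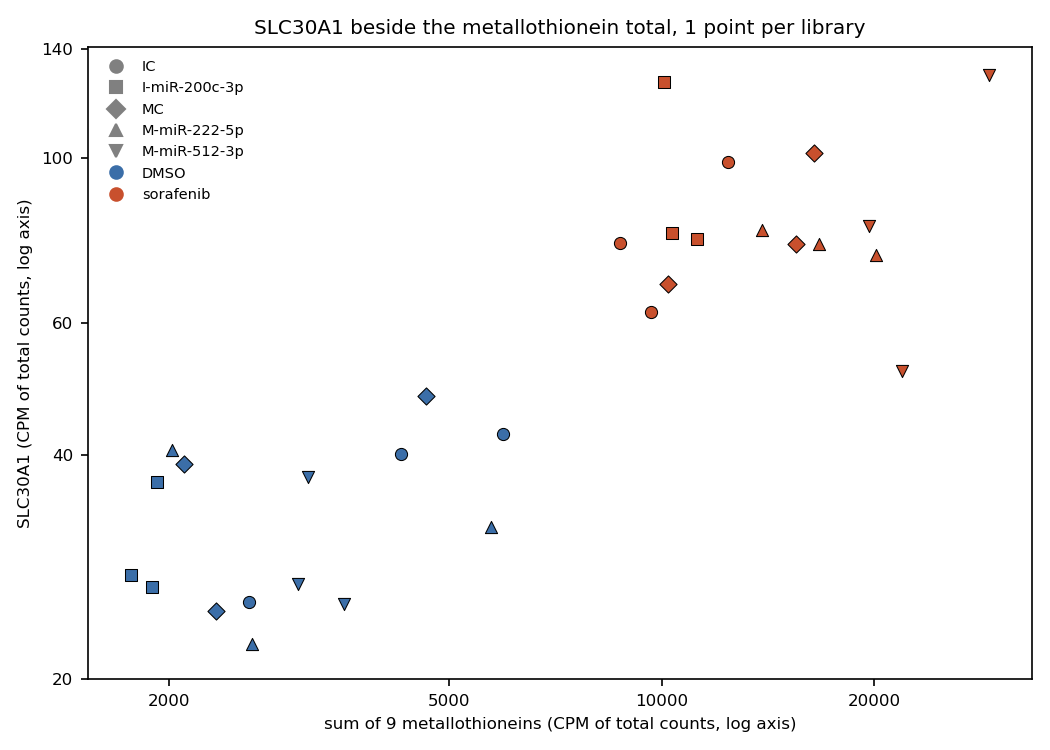
SLC30A1 against the metallothionein total in each library. Both axes are CPM of total counts on log axes, symbols give the transfection, blue is DMSO and red is sorafenib; the 15 sorafenib points lie above and to the right of the 15 DMSO points, and the highest mean total is that of M-miR-512-3p_sorafenib (23584 CPM).

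The inhibitor and mimics were compared with their controls to ask whether the oligonucleotide itself changes these genes. In DMSO, all 10 members were lower in I-miR-200c-3p than in IC, and MT1E and MT1B were called, against 0.0157% of all genes tested. They were the only 2 genes called there by edgeR. MT1B had 81, 154 and 0 counts in IC_DMSO and 0 in each I-miR-200c-3p_DMSO library. It passed the filter on low counts only through the sorafenib libraries of the fit, so its call adds no support here. MT1E had 1113, 1327 and 737 CPM in IC_DMSO and 450, 455 and 498 in I-miR-200c-3p_DMSO, with no overlap and a log2 fold change of -1.16 ± 0.18 (adjusted p = 0.023). MT1G (-1.64 ± 0.29, 0.052), MT2A (-1.10 ± 0.20, 0.052) and MT1X (-1.62 ± 0.30, 0.060) missed the threshold. SLC30A1 differed by -0.25 ± 0.24 (0.99).

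The calls in this comparison depended on every library. Without the third IC_DMSO library, 6 members were called lower (MT1B, MT1E, MT1G, MT1M, MT1X and MT2A), and without any other of the 6 libraries no member was called. The IC_DMSO libraries held 3938764 to 4933999 counts and those of I-miR-200c-3p_DMSO 6358415 to 8227250, and the part of depth was not tested. DESeq2 called 3 members.

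In sorafenib, no member was called between I-miR-200c-3p and IC, with 0 at an unadjusted p under 0.05, 0 by DESeq2 and 0% of all genes called. MT2A stood at 4938 ± 826 CPM in IC_sorafenib and 5103 ± 247 in I-miR-200c-3p_sorafenib, a log2 difference of 0.06 ± 0.20. The interaction of the inhibitor with sorafenib was above 0 for all 10 members, with 8 at an unadjusted p under 0.05, but none was called by edgeR or DESeq2 (smallest adjusted p = 0.29; 0% of all genes called). Without the third IC_DMSO library, 6 members were called in the interaction, MT1B, MT1E, MT1G, MT1M, MT1X and MT2A.

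M-miR-222-5p and M-miR-512-3p were both compared with the same MC libraries. M-miR-222-5p against MC gave no called member in DMSO or in sorafenib, with 0 at an unadjusted p under 0.05 and 0 by DESeq2 in each, and 0% of all genes called in each. The metallothioneins differed by -0.11 to 0.65 in DMSO and 0.12 to 0.37 in sorafenib on the log2 scale, with SE of 0.24 to 1.31. The interaction with sorafenib gave none either (0 unadjusted, 0 by DESeq2, 0% of all genes).

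M-miR-512-3p against MC in DMSO gave no called member, with 1 at an unadjusted p under 0.05, 0 by DESeq2 and 0.634% of all genes called. In sorafenib all 10 members were higher in M-miR-512-3p, by 0.59 to 1.24 for the metallothioneins and by 0.18 ± 0.28 for SLC30A1 on the log2 scale. None was called, with 5 at an unadjusted p under 0.05, 0 by DESeq2, a smallest adjusted p of 0.15 (MT1A) and 0.355% of all genes called. MT2A stood at 7158 ± 1848 CPM in MC_sorafenib and 13988 ± 2834 in M-miR-512-3p_sorafenib, with no overlap and a log2 difference of 0.95 ± 0.35 (adjusted p = 0.28). The interaction with sorafenib gave 0 called members by edgeR and by DESeq2, with 2 at an unadjusted p under 0.05 and 0.00755% of all genes called.

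Between the control transfections, MC at 24 h and IC at 6 h did not differ in any member in DMSO at the threshold, with 0 at an unadjusted p under 0.05, 0 by DESeq2 and 0.528% of all genes called. MT2A was at 1321 ± 734 CPM in MC_DMSO and 2029 ± 795 in IC_DMSO. The interaction of time with sorafenib was above 0 for all 10 members, from 0.07 ± 0.37 for SLC30A1 to 1.19 ± 0.52 for MT1X and 2.39 ± 1.34 for MT1B. It gave 0 called members by edgeR and by DESeq2, with 3 at an unadjusted p under 0.05 and 0.216% of all genes called. Without the second MC_DMSO library, 3 members were called in each of these comparisons, MT1B, MT1E and MT2A.

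The genes that act beside the members were taken as lists. MTF1, the factor that senses zinc for these genes, was called in none of the 5 sorafenib comparisons by edgeR or DESeq2, with 1 at an unadjusted p under 0.05. Its means ran from 12.97 CPM in I-miR-200c-3p_sorafenib to 31.3 CPM in M-miR-222-5p_sorafenib, with log2 fold changes of -0.30 and -0.72 in IC and I-miR-200c-3p and of 0.20 to 0.39 at 24 h. Of the 9 other SLC30 genes, listed as zinc exporters, 6 were tested and 0 were called in any transfection by edgeR or DESeq2, with 1 at an unadjusted p under 0.05 in M-miR-512-3p and 0 in the other 4. Their median log2 fold change was -0.05 in IC, -0.39 in I-miR-200c-3p, -0.19 in MC, -0.41 in M-miR-222-5p and -0.52 in M-miR-512-3p, beside members' medians of 1.42, 2.85, 2.49, 2.44 and 2.89.

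Of the 14 SLC39 zinc importers, 11 were tested. In M-miR-512-3p, where 4.62% of all genes tested were called lower, 3 of the 11 fell with sorafenib. They were SLC39A11 (log2 fold change -1.21 ± 0.30), SLC39A13 (-1.45 ± 0.41) and SLC39A14 (-1.17 ± 0.35). SLC39A14 had a mean of 316 CPM in M-miR-512-3p_DMSO against 119 to 145 in the other DMSO groups. In M-miR-512-3p_sorafenib it had 141 CPM, against 115 to 142 in the other sorafenib groups. The M-miR-512-3p_sorafenib means of SLC39A11 and SLC39A13, 14.9 and 6.21 CPM, were the lowest of the 10 groups. In the other 4 transfections 0 were called, while DESeq2 called 2 lower in MC and 0 elsewhere. There, 0, 1, 2 and 2 passed an unadjusted p under 0.05 in IC, I-miR-200c-3p, MC and M-miR-222-5p. SLC39A10, an importer at the plasma membrane, differed by -0.45 to 0.05. Of 14 genes of copper handling, 13 were tested, and COX17, a copper chaperone for cytochrome oxidase, rose in M-miR-222-5p (1.32 ± 0.31) while CP, the copper-binding plasma protein ceruloplasmin, fell in M-miR-512-3p (-2.23 ± 0.49). These calls of 1 gene each stand beside 2.82% of all genes called higher in M-miR-222-5p and 4.62% called lower in M-miR-512-3p, so they say nothing particular about copper handling. In the other 3 transfections 0 were called by edgeR or DESeq2, with 0, 1 and 1 at an unadjusted p under 0.05 in IC, I-miR-200c-3p and MC.

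Genes of metal and oxidative stress were called at both times, in different directions for SLC7A11 and TXNRD1. In MC, M-miR-222-5p and M-miR-512-3p, 4 of 10 tested rose and 0 fell, beside 1.8%, 2.82% and 5.34% of all genes called higher. DESeq2 called 4, 4 and 5 higher. Among those that rose were SLC7A11, the cystine transporter (2.91 ± 0.42, 2.84 ± 0.42 and 2.98 ± 0.41), and TXNRD1, thioredoxin reductase (1.17, 1.49 and 0.99). GCLM and GCLC, which serve glutathione synthesis, rose too (1.47, 2.00 and 2.14 for GCLM and 1.06, 1.22 and 1.32 for GCLC). At 6 h, 0 of 9 were called in IC (1 at an unadjusted p under 0.05, 0 by DESeq2). In I-miR-200c-3p the heat shock gene HSPA1B rose (1.29 ± 0.22), beside 0.911% of all genes called higher. SLC7A11 (-1.25 ± 0.32) and TXNRD1 (-0.79 ± 0.18) fell there, beside 1.37% of all genes called lower. HSPA1B had means of 21.7 CPM in I-miR-200c-3p_DMSO and 53.5 in I-miR-200c-3p_sorafenib, beside 52.7 in IC_DMSO and 61.7 in IC_sorafenib. Of 7 glucocorticoid responsive genes, listed because glucocorticoids also raise MT2A, 0 were called at 6 h (IC 1 and I-miR-200c-3p 0 at an unadjusted p under 0.05, 0 by DESeq2). At 24 h, 2 rose in MC, 2 in M-miR-222-5p and 4 in M-miR-512-3p, beside the same shares of all genes called higher. DESeq2 called 3, 3 and 4 higher in these transfections. DUSP1, a phosphatase of MAP kinases, rose by 2.24 ± 0.46, 3.10 ± 0.47 and 3.28 ± 0.48 there, PER1, a clock gene, by 1.52, 2.02 and 2.37, and SGK1, a kinase, and NR3C1, the glucocorticoid receptor, by 1.27 and 0.79 in M-miR-512-3p.

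Among 9741 genes with a mean of at least 5 CPM, those most like SLC30A1 over the 10 group means, by Pearson's r of log2(CPM + 1), were ENSG00000275993 (0.977), ZBTB43 (0.976), AXIN2 (0.969), ARRDC3 (0.963) and SREK1 (0.963). Those most like the metallothionein total, here a sum of TMM-scaled CPM, were DDIT3 (0.979), AXIN2 (0.977), SLC44A2 (0.976), LSM10 (0.974) and ZC3H15 (0.974). The points share libraries and fall into 5 DMSO and 5 sorafenib groups, so these values describe mainly the gap between treatments.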

How the data were processed

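RNA of 30 HepG2 libraries (QuantSeq 3′ FWD, 350 ng of RNA, 65 cycles) was analysed from the deposited raw counts. Before deposit, the authors had the reads trimmed, mapped by STAR to the GRCh38 genome (a modified ENCODE protocol) and assigned to genes by HTSeq-count. Versions of STAR and HTSeq-count, annotation release, strand setting and the treatment of reads that match several genes or of molecular identifiers are not given in the sources used here. A second deposited table holds a normalized signal, equal to these counts divided by median-ratio size factors set within each transfection. It was read only for that check, and no result uses it.

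Of 60199 lines, 92 named no gene and were left out (3 counts). Gene symbols came from GENCODE release 44. Genes were tested with the two-sided quasi-likelihood F test of edgeR 4.0.16 (R 4.3.3) on TMM-scaled counts after its filter on low counts, with 1 coefficient per group. The 12 libraries of 6 h (12738 genes tested), the 18 of 24 h (13244) and the 12 of both controls (12500) were fitted apart. A gene was called at a Benjamini-Hochberg adjusted p below 0.05 over all genes tested. The standard error (SE) is the log2 fold change divided by the square root of F. Levels are CPM scaled by TMM over all 30 libraries, and sums over metallothioneins are CPM of total counts, with no test. Only the search for genes most like the total used a sum of TMM-scaled CPM. The script was tested on simulated data. Alternatives were DESeq2 1.42.0, other scalings, no filter, only the groups compared, a replicate block and leaving out single libraries.

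The text names all 10 members, at most 4 called genes per list with the smallest p, MTF1, SLC39A10, and the 5 genes most like SLC30A1 and most like the total. GCLC is named in addition to that rule. The members and lists were chosen with earlier results of these data known. The replicate numbers were checked as pairs through the correlation of deviations from group means. MC_DMSO and M-miR-222-5p_DMSO had a correlation over 0.1 in all 3 pairs (0.143 to 0.156) and count as paired, and the block changed no call between them. No other comparison met this rule, though some were positive in all 3 pairs, such as M-miR-222-5p_DMSO with M-miR-222-5p_sorafenib (0.061 to 0.114). The second libraries of MC and M-miR-222-5p, in DMSO and in sorafenib, had the lowest totals of their groups (3941570 to 4939876 counts). They had 16132 to 16334 genes detected, against 13252 to 15365 in the other libraries of these groups. The part of this in the results was not tested. Any 2 replicates of a group differed by more than counting error (chi-square per degree of freedom of 4.54 or more).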

Additional observations from a re-analysis of the deposited data

How the results depend on the processing

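Every member kept a log2 fold change above 0 with sorafenib in all 5 transfections under every alternative in which it was tested. With only the groups compared, not every scarce member passed the filter on low counts in IC or in the comparisons in DMSO. The count of members called in I-miR-200c-3p (9), MC (7), M-miR-222-5p (7) and M-miR-512-3p (9) stayed within 1.5 times under all alternatives, with ranges of 9 to 9, 6 to 8, 6 to 10 and 9 to 9 when 1 library was left out. In IC, the count of 4 became 8 without the filter on low counts, 1 with the replicate block, 0 with only the groups compared and 0 to 5 with 1 library left out. In DMSO, the 2 members lower in I-miR-200c-3p than in IC became 4 under total-count scaling, 7 with no filter and 0 with the replicate block. The count was 0 with only the groups compared, where MT1B did not pass the filter, and 0 to 6 with 1 library left out. With no filter, 6 members were called in the interaction of I-miR-200c-3p and sorafenib, 1 in M-miR-512-3p against MC in DMSO and 5 in sorafenib, 2 in the interaction of M-miR-512-3p and sorafenib, 4 in MC against IC in DMSO and 6 in the interaction of time and sorafenib, all comparisons in which none was called with the filter. Leaving out 1 library gave 0 to 6 called in the interaction of I-miR-200c-3p and sorafenib, 0 to 3 in MC against IC in DMSO and 0 to 3 in the interaction of time and sorafenib. The cause was not tested. The replicate block gave 0 in every comparison where none was called without it. By the rule of a correlation over 0.1 in all 3 pairs, only MC_DMSO and M-miR-222-5p_DMSO count as paired. Same-numbered libraries had a mean correlation of deviations of 0.0215 at 6 h and 0.0416 at 24 h.

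SLC30A1 in IC passed the threshold with no filter (log2 fold change 1.18) and with DESeq2 (1.17). With 1 library left out, its log2 fold change ran from 0.97 to 1.32 in IC, 1.41 to 1.81 in I-miR-200c-3p, 1.01 to 1.51 in MC, 1.23 to 1.59 in M-miR-222-5p and 1.38 to 1.95 in M-miR-512-3p. The log2 ratio of the metallothionein total moved by less than the replicate spread under all alternatives, and ran with 1 library left out from 1.00 to 1.58 in IC, 2.46 to 2.54 in I-miR-200c-3p, 2.01 to 2.66 in MC, 2.02 to 2.86 in M-miR-222-5p and 2.68 to 2.97 in M-miR-512-3p. Total-count scaling moved the median of all genes with sorafenib to -0.12 in MC, -0.14 in M-miR-222-5p and -0.22 in M-miR-512-3p, and no member's direction with it. An alternative chosen after seeing the data left out the second DMSO libraries of MC and M-miR-222-5p, which gave 9 called members in MC, 10 in M-miR-222-5p and 10 in M-miR-512-3p. MT1B had 0 to 3 counts in 11 of the 15 DMSO libraries, and MT1H stood at 0 to 2.99 CPM in all 15, so their fold changes rest on few counts.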
